A study of Danio rerio with 11 samples.

Results

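Livers of azacytidine-injected wild-type zebrafish larvae were set against livers of vehicle-injected wild-type larvae over all genes on the array, including the expressed genes whose levels stayed close together. The samples were chosen by their titles, as 4 livers labelled azacytidine (samples 1, 2, 5 and 6) and 4 labelled control (samples 1, 2, 4 and 8), which makes 8 of the 11 samples in the series. The azacytidine larvae carried the ahcy +/+ genotype and were given 1 mM azacytidine at 2 days post fertilization (dpf), injected into the yolk. The control larvae carried the same genotype and received vehicle at the same age. Livers of both groups were collected at 4 dpf. The remaining 3 samples came from vehicle-injected ahcy -/- larvae and entered the statistical model for its estimate of spread alone. Outside the model they counted in the mean levels over all 11 samples by which probe sets were ranked by brightness. The question was which transcripts differ when methylation is inhibited by the drug. No label gives the clutch or the number of larvae behind a sample. The p-values therefore measure only how far these samples spread, and that spread may be technical.

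Azacytidine is a cytidine analogue that cells build into RNA and DNA, and in DNA it traps the DNA methyltransferases that copy methylation to new strands. In mammalian cells, inhibitors of this kind are known to raise interferon-stimulated genes. The liver of a larva consists mostly of hepatocytes, which secrete plasma proteins, lipoproteins and complement. All nucleated cells can show peptides on MHC class I molecules, while the class II molecules and their invariant chain are typical of antigen-presenting leukocytes.

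Each sample was hybridised to 1 array, and the unit throughout is the deposited log2 expression level of a probe set. RNA had been amplified in 2 rounds, and 1 log2 unit is a 2-fold difference. Array medians lay between 5.89 and 5.97 in the azacytidine group and between 5.97 and 6.14 in controls. The median difference over all probe sets was -0.06. It became 0.05 when each array was centred on its own median, so differences of this size have no settled sign. The marker list of hepatocytes averaged 12 to 12.24 on azacytidine arrays and 11.68 to 11.93 on control arrays, with none of its 24 measured members at 0. Hepatocyte markers were thus high on every array. Some control arrays carried more signal from tissues outside the liver. The mean of 24 neural markers was between 5.17 and 5.52 on the azacytidine arrays, against 6.13, 5.61, 8.50 and 7.43 on controls 1, 2, 4 and 8. The mean of 16 exocrine pancreas markers was 10.02 on control 2 and at most 7.39 on any other of the 8 arrays. In such bulk samples, fewer cells of a type and less RNA per cell cannot be told apart. The difference between the 3' and 5' actin control probe sets, which grows as RNA breaks down, was 1.88 to 4.02 with azacytidine and 3.16 to 4.92 in controls. Controls 4 and 8, which had the highest neural means, were the highest of the 8 on it, at 4.87 and 4.92. They stood apart on the GAPDH 3' minus middle difference as well, at 4.15 and 4.36, against 2.51 to 2.94 on the azacytidine arrays and 2.93 and 2.71 on controls 1 and 2. The actin 3' minus middle difference did not set them apart in this way. Control 4 was at 3.85 on it and control 8 was the lowest of the 8, at 2.76. It was 3.48 to 3.80 on the azacytidine arrays and 3.92 and 3.44 on controls 1 and 2.

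**Figure D1:**
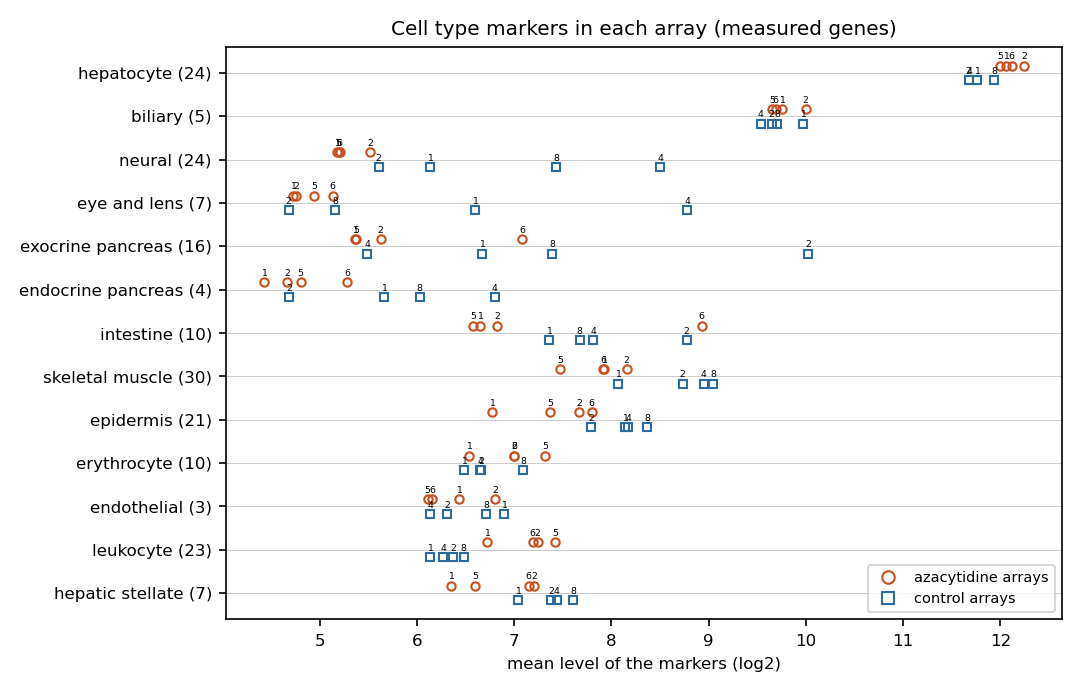
Mean log2 level (horizontal axis) of the measured markers of 13 cell types (rows, number of genes in parentheses) on each array. Circles are the 4 azacytidine arrays, squares the 4 control arrays, and the small digits are the sample numbers. Azacytidine array 6 stands apart for intestine, control 2 for exocrine pancreas and control 4 for neural and for eye and lens markers.

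Azacytidine livers had far higher levels of a small set of immune genes. These were interferon targets, components of peptide presentation on MHC molecules and some genes of the NF-kB system, together with some secreted liver proteins. Fewer genes were called lower, and among named genes the largest called falls were in the rhythmic transcriptional repressor genes nfil3-5 and per2. Some uncalled genes had lower differences, among them the intestinal marker gene vil1 (-3.225) and a neural marker (-3.205). Of 12784 probe sets, 51 were called higher (0.399%) and 23 lower (0.18%), a call being an adjusted p under 0.05 in limma with Benjamini-Hochberg adjustment over all probe sets. They stood for 34 genes called higher (0.436% of 7792 named genes) and 13 called lower (0.167%), each gene read from its brightest probe set. Counts of called members of the gene lists below are to be read beside these shares. The balance of directions rests on the threshold and on single arrays. At an unadjusted p under 0.05, 669 probe sets were higher and 1270 lower (1033 and 942 after centring), and without control 2 limma called 59 higher and 94 lower. The differences were as large as 5.92 upward for a named gene, and 26 of the risers and 6 of the fallers differed at least 4-fold. On 5 risers and 2 fallers, 1 whole group was in the lowest 10% of its arrays. With such dim levels raised to the 10th percentile, a 5.27-fold riser became 2.06-fold and a 4.16-fold faller 2.51-fold. On all 74 called probe sets the levels of the 4 azacytidine arrays lay wholly outside those of the 4 controls. Being called on these same arrays largely builds this in. Over all probe sets, 3.71% lay wholly above and 5.26% wholly below the controls. When the mean of neural, muscle and epidermis markers was added to the model as a covariate, limma called 0 probe sets (lowest adjusted p = 0.055), with 549 higher and 423 lower at an unadjusted p under 0.05. In that fit the 34 risers and the 13 fallers all kept their direction, with unadjusted p under 0.05 for 32 and 12 of them. The exceptions were gbp1, timmdc1 and tmem38a, with unadjusted limma p of 0.097, 0.068 and 0.067. Their differences shrank by more than 1.5 times, to 1.15 for gbp1 and 1.01 for timmdc1, as did those of c4b (1.14), per2 (-1.74) and actn3b (-0.79). The fallers tmem38a, pvalb3, actn3b and rtn1a are themselves members of the marker lists behind the covariate. Their smaller differences in that fit are thus partly built in. This covariate lay between -1.17 and -0.71 on azacytidine arrays and between -0.42 and 0.70 on control arrays, so in these 8 samples it did not overlap between the groups.

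**Figure D2:**
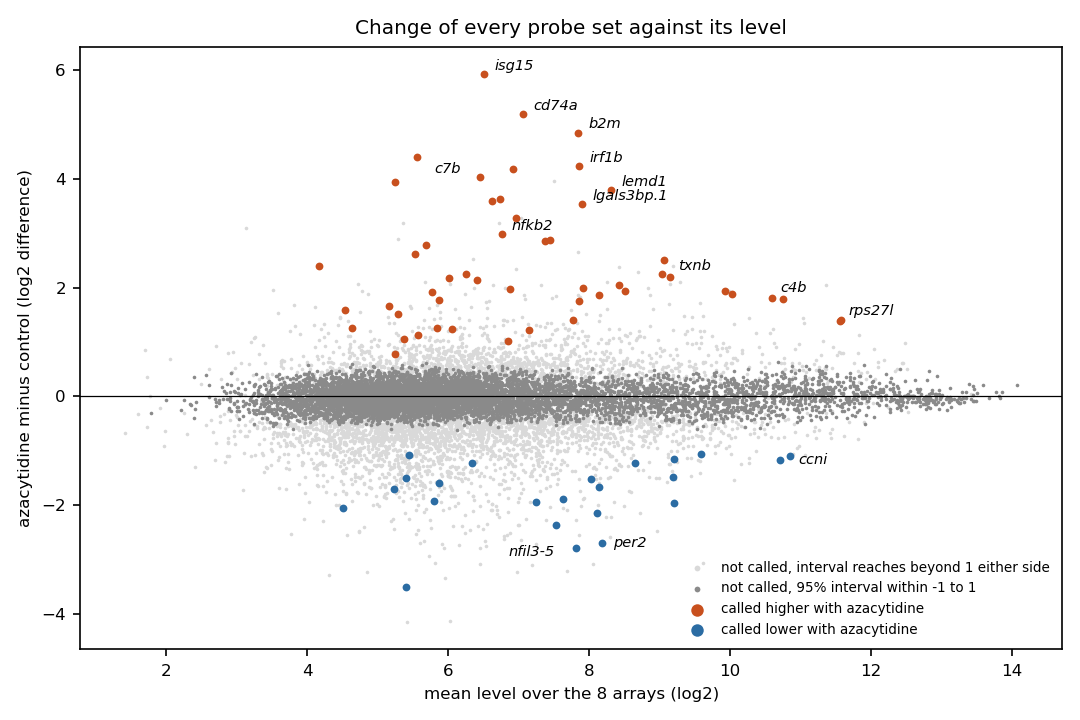
Log2 difference, azacytidine minus control (vertical axis), of each of 12784 probe sets against its mean log2 level over the 8 arrays (horizontal axis). Orange and blue points are the 51 called higher and the 23 called lower; dark grey points have a 95% interval within -1 to 1. The called points reach 5.92 upward, and the dark grey points run through the whole range of levels.

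Among interferon-related genes, isg15, irf1b and gbp1 rose. The gene isg15, which encodes a ubiquitin-like modifier and responds strongly to interferon, was at 7.14, 10.07, 9.97 and 10.70 on azacytidine arrays 1, 2, 5 and 6, against 3.72, 3.60, 3.33 and 3.57 on controls 1, 2, 4 and 8. All control levels were in the lowest 10% of their arrays, so the rise is given as at least 35.3-fold (fitted log2 difference 5.92 ± 0.65, adjusted p = 0.0025). Array 1 was over 2 units below the other azacytidine arrays and still above every control. The transcription factor gene irf1b showed the same unevenness, with 7.06, 10.35, 11.32 and 11.17 on azacytidine arrays and 5.49, 5.51, 5.66 and 6.34 on controls (4.22 ± 0.75, adjusted p = 0.028). The guanylate-binding GTPase gene gbp1 was at 8.46, 8.32, 9.47 and 8.98 with azacytidine and at 6.93, 6.90, 5.69 and 4.30 in controls (2.85 ± 0.56, adjusted p = 0.048). Here the wide group was the controls, in which control 8 was the lowest. With the marker covariate gbp1 differed by 1.15 and was 1 of the risers without an unadjusted p under 0.05 in limma. These 3 were the called members among 21 measured interferon response genes, of which 20 had a positive difference (median 0.57, against -0.03 over all named genes). At an unadjusted p under 0.05 in limma 12 of the 21 were higher, the called ones included, and none lower. The shares of all named genes were 5.67% and 9.29%. The interferon regulatory factor gene irf7 differed by 0.30 (adjusted p = 0.87) and its relative irf1a by 0.03 (adjusted p = 0.97). Both lie below the median of the list and do not stand for its uncalled members. The call of isg15 held in each of the 11 fits without 1 array. That of irf1b was lost without azacytidine array 2, 5 or 6 or control 1, 4 or 8, and that of gbp1 without any of the 4 azacytidine arrays, controls 4 and 8 or mutants 4 and 6.

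Genes of antigen presentation formed the list with the most called members, 6 of 25 measured genes, against 0.436% of all named genes called higher. None was called lower. The lists were chosen with earlier results of these data known, so their order only describes them. The median difference of the list was 1.02, and 24 of 25 differences were above 0, as were 46% of those of all named genes. The called members serve both MHC classes, but none of the 6 encodes a class I heavy chain or a chain of class II itself. The gene b2m, which encodes the light chain of MHC class I, was at 8.71, 10.47, 10.92 and 10.94 on azacytidine arrays 1, 2, 5 and 6, against 6.20, 5.22, 5.09 and 5.15 on controls 1, 2, 4 and 8 (4.84 ± 0.49, adjusted p = 0.0016). The invariant chain, which guides class II molecules to the compartment where they bind peptide, has a pair of genes here. The copy cd74a was at 8.20, 9.37, 10.18 and 10.87 with azacytidine and at 4.51, 4.6, 4.22 and 4.55 in controls (5.18 ± 0.46, adjusted p = 0.0011). The copy cd74b was at 7.53, 8.82, 9.57 and 10.12 with azacytidine and at 5.08, 5.11, 4.51 and 4.64 in controls (4.18 ± 0.49, adjusted p = 0.0025). The azacytidine arrays stood in the same order for both copies, array 1 lowest and array 6 highest.

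The remaining called members of the list work on the peptide supply of class I molecules. The gene psme1 encodes a subunit of the interferon-inducible proteasome activator. Its levels were 6.70, 8.66, 9.45 and 9.58 on azacytidine arrays 1, 2, 5 and 6, against 4.93, 6.09, 5.36 and 4.91 on controls 1, 2, 4 and 8 (3.28 ± 0.57, adjusted p = 0.027). Its partner subunit gene psme2 differed by 2.65 but was not called (adjusted p = 0.054). Tapasin, encoded by tapbp.1, holds class I molecules at the peptide transporter. Its gene was at 7.34, 8.77, 9.82 and 9.61 with azacytidine and at 5.75, 5.62, 6.06 and 6.62 in controls (2.87 ± 0.47, adjusted p = 0.019). The aminopeptidase gene erap1b, whose mammalian relative trims peptides in the endoplasmic reticulum (ER), was at 5.57, 6.31, 6.36 and 6.30 with azacytidine and at 4.94, 5.14, 5.12 and 4.8 in controls (1.14 ± 0.20, adjusted p = 0.030). Azacytidine array 1 was again the lowest for these 3 genes. The inducible catalytic subunit genes psmb8a, psmb9a and psmb10 differed by 0.41, 0.34 and 0.55 and were not called (adjusted p = 0.40, 0.57 and 0.71). The general folding factor gene canx, whose product also serves class I assembly, differed by 0.19 with a 95% interval from -0.20 to 0.59. It does not stand for ER folding factors at large, since 40 of 45 ER stress and chaperone genes had positive differences (median 0.56). The calls of b2m, cd74a and cd74b held in each of the 11 fits without 1 array, while psme1 and erap1b lost theirs in 6 of them and tapbp.1 in 4. The fits without azacytidine array 2, 5 or 6 or control 4 lost all 3, and those without control 8 and without control 1 lost psme1 and erap1b.

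Since cd74a and cd74b also stand in the list of leukocyte markers, that list was read without them. Its other 21 measured genes averaged 6.61 to 7.19 on azacytidine arrays and 6.27 to 6.66 on control arrays. None was called, none was at 0, the median difference was 0.40 with 15 of 21 above 0, and 5 had an unadjusted p under 0.05 in limma, all of them higher, against 5.67% of all named genes. The pan-leukocyte phosphatase gene ptprc differed by 0.23 and the neutrophil genes mpx and lyz by -0.31 and -0.85 (adjusted p = 0.71, 0.84 and 0.80). These genes do not stand for the list, of which lyz was the lowest member. The protease gene ctss2.1, also in the list, differed by 3.27 and was not called (limma adjusted p = 0.068). The part of leukocyte content in the immune results was not tested.

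Of the NF-kB system, 3 of 28 measured inflammation genes were called higher, against 0.436% of all named genes, and none lower, with a median difference of 0.44. All 3 belong to its signalling core. The gene nfkb2, which encodes the precursor of the alternative pathway's DNA-binding subunit, was at 7.17, 8.38, 8.69 and 8.74 on azacytidine arrays 1, 2, 5 and 6, against 5.15, 5, 5.76 and 5.17 on controls 1, 2, 4 and 8 (2.98 ± 0.36, adjusted p = 0.0025). The kinase gene map3k14a, whose product triggers processing of that precursor, was at 6.25, 6.78, 6.97 and 6.69 with azacytidine and at 5.32, 5.42, 5.30 and 5.69 in controls (1.24 ± 0.20, adjusted p = 0.016). The inhibitor gene nfkbiab, itself a target of NF-kB, was at 10.44, 11, 11 and 11.13 with azacytidine and at 8.31, 8.46, 9.97 and 9.12 in controls (1.93 ± 0.35, adjusted p = 0.031). For nfkbiab the azacytidine arrays were tighter (SD 0.31) than the controls (SD 0.76). Its paralogue nfkbiaa differed by 1.24 and was not called (adjusted p = 0.072), and relb, which encodes the partner subunit of the nfkb2 product, differed by 0.16 (adjusted p = 0.88). The call of nfkb2 held in every fit without 1 array. That of map3k14a was lost without azacytidine array 2 or 5 or control 4, and that of nfkbiab without azacytidine array 2, 5 or 6 or control 1 or 8. The receptor gene crfb4, a member of the class II cytokine receptor family, lay outside these lists and rose as well, with 7.32, 6.41, 8.22 and 7.54 on azacytidine arrays and 5.24, 5.68, 4.43 and 5.13 on controls (2.25 ± 0.37, adjusted p = 0.019). It lost its call without azacytidine array 6, control 4 or control 8.

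Secreted proteins of the liver moved in part. Complement showed 2 called members among 19 measured genes, both higher, against 0.436% of all named genes, with a median difference of 0.55. The terminal pathway gene c7b was at 9, 6.57, 9.34 and 8.95 on azacytidine arrays 1, 2, 5 and 6, against 3.35, 4.70, 4.10 and 5.60 on controls 1, 2, 4 and 8 (4.03 ± 0.59, adjusted p = 0.0098). Its low azacytidine array was array 2, which was also the lowest for gbp1 and crfb4. The gene c4b, which encodes a component shared by the classical and lectin pathways, was at 11.22, 11.52, 11.45 and 11.79 with azacytidine and at 9.86, 9.80, 9.19 and 9.93 in controls (1.80 ± 0.34, adjusted p = 0.041). Its relative c4 pointed the other way (difference -1.23, adjusted p = 0.15), and c9 of the same terminal pathway differed by 0.51 (adjusted p = 0.55). The galectin-binding glycoprotein gene lgals3bp.1 was at 8.86, 10.15, 9.56 and 10.08 with azacytidine and at 5.97, 6.19, 6.46 and 5.90 in controls (3.53 ± 0.38, adjusted p = 0.0023). The calls of c7b and lgals3bp.1 held in each fit without 1 array, whereas c4b lost its call without any azacytidine array and without control 1, 4 or 8.

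Among plasma proteins, the fetuin gene ahsg1 was the called member of 24 hepatocyte markers, which had a median difference of 0.16. Of these markers 18 had positive differences, against 46% of all named genes. In limma 7 had an unadjusted p under 0.05, all of them higher, against 5.67% of all named genes. The part of hepatocyte content in the rises of secreted proteins was not tested. The gene ahsg1 was at 11.25, 10.97, 10.94 and 10.70 on azacytidine arrays 1, 2, 5 and 6, against 8.61, 8.62, 9.22 and 9.92 on controls 1, 2, 4 and 8 (1.87 ± 0.31, adjusted p = 0.019). Azacytidine array 1, the lowest for most of the immune genes above, was the highest for ahsg1. The gene hpxb, of the haem-binding hemopexin family, was at 8.84, 8.97, 9.62 and 10.33 with azacytidine and at 7.91, 7.29, 7.23 and 7.16 in controls (2.04 ± 0.37, adjusted p = 0.031). Lipoprotein genes had 2 called members of 22, both higher, against 0.436% of all named genes, with a median of 0.08. The hepatic lipase gene lipca was at 6.85, 9.24, 8.36 and 9.21 with azacytidine and at 4.18, 4.94, 4.59 and 5.59 in controls (3.59 ± 0.51, adjusted p = 0.0084). The apolipoprotein gene apoc4 was at 8.37, 8.79, 9 and 8.79 with azacytidine and at 6.11, 7.15, 7.02 and 7.65 in controls (1.76 ± 0.31, adjusted p = 0.028). The call of lipca held without any 1 array. Those of ahsg1, apoc4 and hpxb were lost without azacytidine array 2 or 5 or control 4, those of apoc4 and hpxb also without array 6, and that of hpxb also without control 8.

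**Figure D3:**
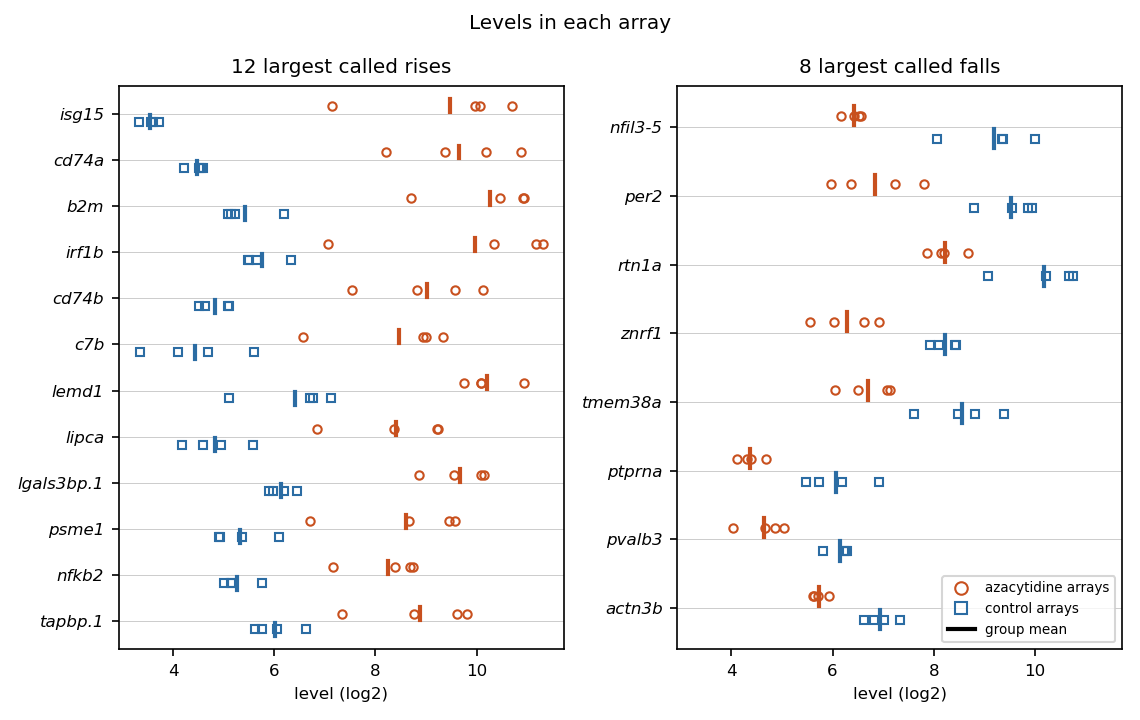
Log2 level (horizontal axis) on each array for the 12 named genes with the largest called rises (left) and the 8 with the largest called falls (right). Circles are the 4 azacytidine arrays, squares the 4 control arrays and vertical bars the group means. The isolated low circle of isg15, irf1b and lipca is azacytidine array 1, and that of c7b is array 2.

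Further risers included genes with known roles in redox control and protein quality control, and a gene known in mammals as a p53 target. The thioredoxin gene txnb, which encodes a small disulphide reductase, was at 9.71, 10.57, 10.41 and 10.30 on azacytidine arrays 1, 2, 5 and 6, against 7.78, 7.40, 8.52 and 8.48 on controls 1, 2, 4 and 8 (2.2 ± 0.33, adjusted p = 0.010). The gene keap1a, whose product marks the antioxidant regulator Nrf2 for degradation, was at 7.39, 7.94, 7.77 and 7.91 with azacytidine and at 6.46, 6.5, 6.40 and 6.80 in controls (1.21 ± 0.23, adjusted p = 0.038). They were the called members of 31 measured antioxidant genes. The ATPase gene vcp, whose product pulls ubiquitinated proteins out of complexes and membranes, was at 8.43, 8.35, 8.48 and 8.62 with azacytidine and at 7.19, 7.13, 6.79 and 7.19 in controls (1.40 ± 0.23, adjusted p = 0.019). Both groups were tight for vcp, with an SD of 0.11 among azacytidine arrays. The gene rps27l, known in mammals as a p53 target, encodes a relative of a ribosomal protein. It was at 12.05, 12.49, 12.27 and 12.23 with azacytidine and at 11.14, 11, 10.52 and 10.84 in controls (1.38 ± 0.16, adjusted p = 0.0025). It was the called member both of 53 p53, damage and apoptosis genes (median 0.16) and of 70 cytosolic ribosomal protein genes. Of the 53, 33 had positive differences. At an unadjusted p under 0.05 in limma 7 were higher and 3 lower, against 5.67% and 9.29% of all named genes. Calls of txnb and rps27l held without any 1 array, that of vcp was lost in 4 such fits (azacytidine arrays 2, 5 and 6 and control 4) and that of keap1a in 9, the exceptions being azacytidine array 1 and mutant 3.

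Among named genes, the largest called rises outside any of these roles were in lemd1 and bmb. The LEM domain gene lemd1 was at 10.09, 10.93, 10.08 and 9.75 on azacytidine arrays 1, 2, 5 and 6, against 5.1, 6.70, 7.12 and 6.76 on controls 1, 2, 4 and 8 (3.79 ± 0.45, adjusted p = 0.0025). The gene bmb, or brambleberry, which in zebrafish embryos is needed to fuse chromosome-bearing micronuclei into a single nucleus, was at 6.92, 7.86, 6.55 and 6.98 with azacytidine and at 4.29, 4.20, 4.11 and 4.56 in controls (2.79 ± 0.26, adjusted p = 0.0011). Both calls held in each fit without 1 array. Smaller rises were called for the citrate transporter gene slc13a5a (1.98), the tetraspan gene tm4sf21a (2.00), the PBX-interacting protein gene pbxip1a (1.78), the complex I assembly factor gene timmdc1 (1.87), the activin subunit gene inhbb (1.25), the endosomal cholesterol transfer gene stard3 (1.05) and the Fanconi anaemia gene fancg (0.78). A transcript known by a locus name, LOC561325, rose by 2.51. Of these 8, slc13a5a, tm4sf21a, pbxip1a and LOC561325 kept their calls in each fit without 1 array. The others lost theirs in 3 (stard3) to 10 (fancg) of the 11 fits, the one without control 4 and the one without azacytidine array 2 among them for each. Genes with several probe sets were not always uniform. Another probe set of timmdc1 differed by 1.04 and was not called, and slc39a9, clpxa and vipb each had a called probe set (1.02, 1.67 and 2.61) beside brighter ones that were not. Of the called risers, 11 had no gene symbol and 3 had several. The largest 3 of these rises, 4.40, 3.93 and 3.63, were on probe sets paired with no gene. For the rises of 4.40 and 3.93, all control levels were in the lowest 10% of their arrays. With dim levels raised to the 10th percentile, these rises were 3.425 and 2.885.

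The largest called fall was in a probe set with no gene symbol, which was at 3.33, 3.43, 4.10 and 3.77 on azacytidine arrays 1, 2, 5 and 6, against 7.69, 5.87, 7.12 and 7.94 on controls 1, 2, 4 and 8 (difference -3.50, adjusted p = 0.0027). All its azacytidine levels were in the lowest 10% of their arrays. Raised to the 10th percentile, they gave a difference of -2.94. Among named genes, the largest called falls were in transcriptional repressors that follow day and night. The bZIP repressor gene nfil3-5 was at 6.56, 6.52, 6.16 and 6.43 on azacytidine arrays 1, 2, 5 and 6, against 9.36, 10.01, 9.35 and 8.07 on controls 1, 2, 4 and 8 (-2.78 ± 0.35, adjusted p = 0.0033). The clock gene per2, which light induces in zebrafish, was at 7.24, 6.37, 5.97 and 7.80 with azacytidine and at 8.79, 9.54, 9.87 and 9.94 in controls (-2.69 ± 0.46, adjusted p = 0.023). The azacytidine levels of nfil3-5 were tight (SD 0.18) and those of per2 wider (SD 0.83). These were the called members of 31 clock and light response genes, whose median difference was -0.55, with 24 of 31 below 0. Of all named genes, 46% had positive differences. At an unadjusted p under 0.05 in limma 10 of the 31 were lower, against 9.29% of all named genes. The clock repressor gene ciarta differed by -1.18 (adjusted p = 0.053), while the activator genes bmal1a and clockb differed by 0.04 each (adjusted p = 0.98 and 0.95). The call of nfil3-5 held without any 1 array, and that of per2 was lost without azacytidine array 2 or 5 or control 4 or 8.

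Other called falls included genes of muscle and of neural or endocrine cells. Of 30 skeletal muscle genes, 3 were called lower, against 0.167% of all named genes. At an unadjusted p under 0.05 in limma 20 of the 30 were lower, against 9.29% of all named genes. Of all named genes, 46% had positive differences. The cation channel gene tmem38a of the sarcoplasmic reticulum was at 6.5, 7.08, 6.05 and 7.14 on azacytidine arrays 1, 2, 5 and 6, against 7.61, 8.81, 9.38 and 8.47 on controls 1, 2, 4 and 8 (-1.88 ± 0.37, adjusted p = 0.048). The parvalbumin gene pvalb3 was at 5.04, 4.86, 4.66 and 4.04 with azacytidine and at 5.82, 6.28, 6.27 and 6.22 in controls (-1.50 ± 0.29, adjusted p = 0.044). The alpha-actinin gene actn3b was at 5.64, 5.92, 5.62 and 5.71 with azacytidine and at 6.81, 6.62, 7.02 and 7.34 in controls (-1.23 ± 0.24, adjusted p = 0.047). The whole muscle list averaged 7.47 to 8.16 on azacytidine arrays and 8.07 to 9.05 on controls, with 29 of 30 differences below 0 and none of its members at 0. Its part in these falls was not tested.

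The reticulon gene rtn1a, a neural ER protein and the called member of 24 neural markers, was at 8.15, 8.21, 7.87 and 8.67 on azacytidine arrays 1, 2, 5 and 6, against 9.08, 10.68, 10.75 and 10.22 on controls 1, 2, 4 and 8 (-1.96 ± 0.33, adjusted p = 0.023). Its other probe set was called as well (-2.36). The ubiquitin ligase gene znrf1 was at 6.92, 6.03, 6.62 and 5.55 with azacytidine and at 8.10, 7.92, 8.43 and 8.41 in controls (-1.94 ± 0.33, adjusted p = 0.022). The gene ptprna, which encodes a phosphatase-like protein of neuroendocrine secretory granules, was at 4.31, 4.39, 4.12 and 4.68 with azacytidine and at 5.47, 6.91, 6.19 and 5.73 in controls (-1.70 ± 0.31, adjusted p = 0.035). Of the neural list, 23 of 24 differences were below 0 with a median of -1.72, while 46% of all named genes had positive differences. At an unadjusted p under 0.05 in limma 19 of its 24 genes were lower, against 9.29% of all named genes. None of its members was at 0, and its mean on controls 1 and 2 was within 1 unit of the highest azacytidine array. The part of neural content in these falls was not tested. The calls of tmem38a, pvalb3, actn3b, rtn1a, znrf1 and ptprna were lost in 4 to 10 of the 11 fits without 1 array, always including those without azacytidine array 2, control 4 and control 8.

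The other named fallers had differences close to -1. The cyclin gene ccni was at 10.23, 10.28, 10.34 and 10.39 on azacytidine arrays 1, 2, 5 and 6, against 11.30, 10.98, 11.75 and 11.58 on controls 1, 2, 4 and 8 (-1.09 ± 0.16, adjusted p = 0.010), and its call held without any 1 array. The nucleolar RNA helicase gene ddx21 fell by 1.05, the nucleosome-binding gene hmgn7 by 1.16, the RNA-binding ubiquitin ligase gene trim71 by 1.07 and ppdpfb, a pancreatic progenitor factor gene, by 1.17. The calls of these 4 were lost in 7 to 10 of the fits without 1 array, including those without azacytidine arrays 2, 5 and 6 and controls 1 and 4, and those of ddx21 and trim71 also after cyclic loess or centring. Of the called fallers, 7 had no gene symbol and 2 had several. These were not all small, with differences of -3.50, -2.15, -2.06 and -1.92 for the 4 largest. With dim levels raised to the 10th percentile of their arrays, those of -3.50 and -2.06 became -2.94 and -1.325.

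The 4 azacytidine arrays resembled each other at least as closely as the controls did. Across all probe sets, which are not independent, Pearson's correlation between arrays was 0.932 to 0.963 within the azacytidine group and 0.901 to 0.947 within controls, and it was 0.872 to 0.948 between an azacytidine and a control array. These correlations describe shared levels of genes, not replicates. The median SD of a probe set was 0.31 among azacytidine arrays and 0.34 among controls, and 79.3% and 72.3% of probe sets had an SD under 0.5. The called risers ran the other way. Their median SD was 0.50 with azacytidine and 0.34 in controls.

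Azacytidine array 1 was the lowest of the 4 on 30 of the 51 called risers, while arrays 2, 5 and 6 were the lowest on 8, 7 and 6. Array 6 was the highest on 20. The median deviation of the 51 probe sets from their azacytidine mean was -0.36, 0.06, 0.11 and 0.22 on arrays 1, 2, 5 and 6, against -0.04, 0.00, -0.03 and 0.04 over all probe sets. All 51 were above every control on each of the 4 arrays, which is largely built in, since they were called on these same arrays. Of the 34 named risers, 9 had an SD over 1, namely irf1b (1.99), isg15 (1.59), psme1 (1.33), c7b (1.28), cd74a (1.15), tapbp.1 (1.13), cd74b (1.12), lipca (1.12) and b2m (1.06). Array 1 was the lowest for all but c7b. The interferon list as a whole averaged 6.48 on array 1 and 7.17 to 7.47 on the other 3, against 5.65 to 6.16 on controls. Antigen presentation averaged 7.26 on array 1 and 8 to 8.70 on the others, against 6.33 to 6.79 on controls. Without array 1, limma called 77 probe sets higher and 17 lower.

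Other risers were more even. An SD under 0.5 was found for 16 of the 34 named risers, among them txnb (0.38), nfkbiab (0.31), ahsg1 (0.23), c4b (0.23), rps27l (0.18) and vcp (0.11). The secreted-protein genes were divided, since c7b and lipca were among the 9 uneven genes and hpxb (0.68) and lgals3bp.1 (0.60) lay between. An SD under 0.5 was also found for 10 of the 13 named fallers, with none over 1, the tightest being ccni (0.07). On the fallers array 5 was most often the lowest, on 13 of the 23 called probe sets. Their median deviation from the azacytidine mean was -0.1975 on array 5 and 0.0625 to 0.065 on the other azacytidine arrays. The smallest gap between the 2 groups ranged from 0.43 to 3.60 over the named risers and from 0.41 to 1.51 over the fallers.

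**Figure D4:**
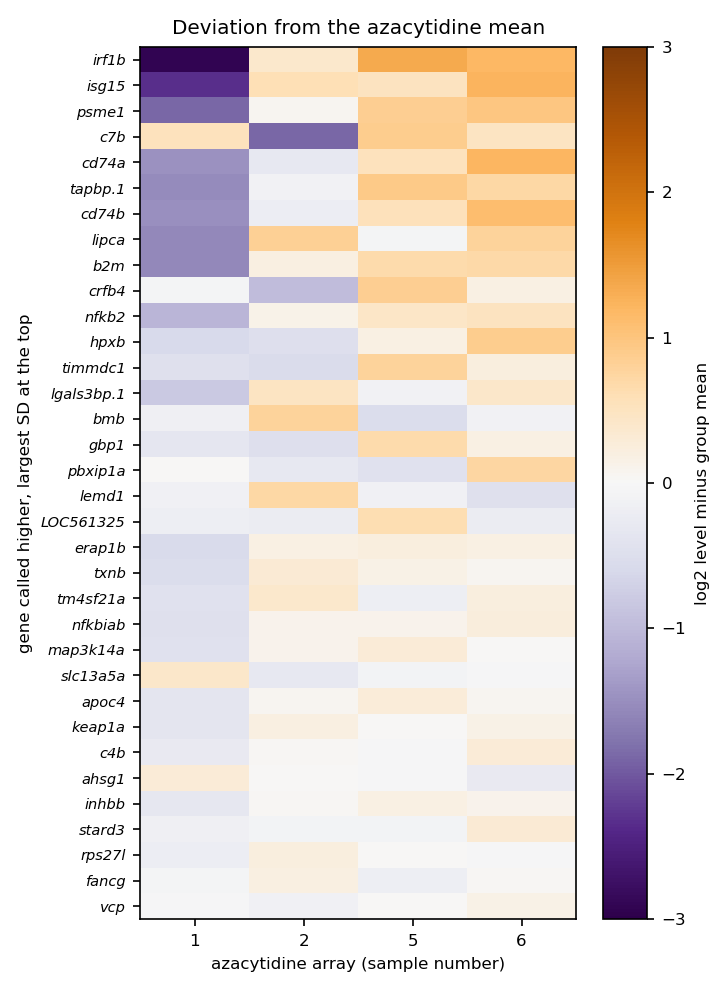
Deviation of each azacytidine array from the mean of the 4 (colour, log2 units) for the 34 named genes called higher, with the largest SD at the top. Columns are azacytidine arrays 1, 2, 5 and 6. The upper rows are darkest for array 1, except c7b, which is lowest on array 2.

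Where azacytidine arrays disagreed without any call, 1 array usually stood apart. Among the 8 above-median genes with the largest SD, the microvillus gene vil1 was at 3.18, 4.47, 3.41 and 10.40 on azacytidine arrays 1, 2, 5 and 6, against 4.58, 10.68, 9.99 and 9.11 on controls 1, 2, 4 and 8. The chitinase gene chia.2, the annexin gene anxa2b and the carboxylate transporter gene slc13a2 were likewise high on array 6 alone among the azacytidine arrays, at 10.21, 9.51 and 9.96, with the other 3 between 4.58 and 5.73. Controls were high as well: chia.2 was at 5.54, 8.77, 9.05 and 8.69 on controls 1, 2, 4 and 8, anxa2b at 4.75, 10.13, 8.40 and 6.95, and slc13a2 at 6.32, 8.16, 4.68 and 5.18. The intestine list averaged 8.93 on array 6 and 6.58 to 6.83 on the other azacytidine arrays, against 7.36 to 8.77 on controls. The part of intestinal tissue in these genes was not tested. Single arrays stood apart elsewhere too. The lysosomal protease gene ctsba was high on azacytidine array 1 (10.68, the other 3 at 3.95 to 6.54), and almost as high on control 4 (10.43, the other controls at 3.06 to 5.69). The gene tmem254 was low on azacytidine array 2 (2.72, the other 3 at 7.65 to 8.83, controls at 6.73 to 8.98).

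More than 50% of the expressed probe sets stayed close between the groups in the model without covariates. Of 6393 probe sets at or above the median level, 3558 (55.7%) had a 95% interval of the difference that lay wholly within -1 to 1, that is, within a 2-fold change in either direction. The count was 1377 with the marker covariate and 2073 with the sample number as a fixed block. Over all probe sets the share was 62.6%. None of the 3558 was called. Only 404 (6.32%) were placed within -0.5 to 0.5, so for most of them the 8 arrays leave room for a modest change. Intervals wholly beyond 1 in either direction were found for 70, called and uncalled together. A further 2750 were neither called, nor placed within -1 to 1, nor wholly beyond 1. For these a 2-fold change was neither shown nor excluded at this precision. The share within -1 to 1 was 71.8%, 67.2%, 52.8% and 58.5% in the 4 level classes from dim to bright, with 6, 12, 14 and 19 of the called risers and 1, 3, 5 and 14 of the called fallers. Low levels are compressed by the background correction. Among named genes 62.7% lay within -1 to 1, the share against which the lists below are read.

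Ribosomal protein and respiratory chain genes had the highest shares within -1 to 1 of all lists. All 70 measured cytosolic ribosomal protein genes but rps27l had intervals within -1 to 1, and their median difference of -0.06 became 0.04 when arrays were centred. The gene rps2 had the narrowest interval of the top 25% of levels, at 13.44, 13.43, 13.46 and 13.43 on azacytidine arrays 1, 2, 5 and 6, against 13.57, 13.49, 13.48 and 13.58 on controls 1, 2, 4 and 8 (interval -0.20 to 0.02). Its groups did not overlap although their means differed by only -0.09. It was followed by rpl38 (-0.17 to 0.08) and rps29 (-0.14 to 0.11), whose groups overlapped. These levels are near the top of the scale, where differences are compressed. Of 86 respiratory chain genes 80 were within -1 to 1, including the cytochrome oxidase subunit gene cox7c (-0.13 to 0.18). Within -1 to 1 were also 64 of 84 mitochondrial ribosome and import genes (76.2%) and 65 of 90 translation factors and tRNA synthetases (72.2%), including the elongation factor gene eef1a1l1 (-0.20 to 0.22). The related gene eef1a1a differed by -1.79 (adjusted p = 0.053). Glycolysis was less settled, with 19 of 42 genes within -1 to 1 (45.2%), gapdh among them at 13.02, 13.04, 12.98 and 12.93 with azacytidine and 13.01, 13.03, 13.05 and 12.92 in controls (-0.31 to 0.29).

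Of liver metabolism, the lists of fatty acid oxidation, amino acid catabolism and cytochrome P450 had no called member, and their shares within -1 to 1 lay on both sides of the 62.7% of all named genes. The transferrin gene tfa was at 13.58, 13.61, 13.32 and 13.60 on azacytidine arrays 1, 2, 5 and 6, against 13.33, 13.36, 13.45 and 13.46 on controls 1, 2, 4 and 8 (interval -0.08 to 0.34). The apolipoprotein gene apoa2 was at 13.81, 13.88, 13.96 and 13.97 with azacytidine and 13.90, 13.77, 13.82 and 13.82 in controls (-0.11 to 0.27). Both overlapped between the groups, in contrast to ahsg1, hpxb and lipca above. Levels of tfa and apoa2 are near the top of the scale, where differences are compressed. They do not stand for all plasma proteins. Of 21 acute phase plasma protein genes, 19 had positive differences (median 0.51). In limma 11 of them were higher at an unadjusted p under 0.05, against 5.67% of all named genes. Of 31 genes of fatty acid oxidation and peroxisomes 25 lay within -1 to 1 (80.6%). Of 40 genes of amino acid catabolism and the urea cycle 23 did (57.5%), including aldh6a1 of valine breakdown (-0.17 to 0.20). Cytochrome P450 and conjugation genes were wider, 27 of 56 (48.2%). Their largest positive difference, for cyp2x7 (1.38), was not called (adjusted p = 0.079). Heat shock genes had no called member of 40, and the chaperone gene hsp90ab1 lay between -0.20 and 0.18.

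The genes closest to the drug's target and to the methyl cycle showed no call. The gene of the maintenance methyltransferase, dnmt1, was at 6.43, 7.41, 6.59 and 6.64 on azacytidine arrays 1, 2, 5 and 6, against 6.20, 6.29, 7.56 and 5.93 on controls 1, 2, 4 and 8 (0.27, interval -0.53 to 1.08). Transcript levels do not measure the trapped enzyme. The de novo methyltransferase gene dnmt3ba was at 7.81, 7.95, 6.80 and 7.63 with azacytidine and 7.6, 7.50, 8.74 and 8.17 in controls (-0.46, interval -1.21 to 0.30). Its relative dnmt3bb.2 was at 5.52, 5.18, 5.04 and 5.36 with azacytidine and 4.27, 4.71, 4.74 and 4.39 in controls. Its groups did not overlap, and the difference of 0.75 missed the call (adjusted p = 0.11). Of 64 genes of DNA methylation and chromatin none was called and 40 lay within -1 to 1. At an unadjusted p under 0.05 in limma 3 were higher and 6 lower, against 5.67% and 9.29% of all named genes. Their median of -0.08 was 0.03 when arrays were centred. The histone demethylase gene kdm1a and the chromatin protein gene hmgb1a had the smallest p of that list (-1.11 and -1.07, adjusted p = 0.072 and 0.057). The S-adenosylhomocysteine hydrolase gene ahcy lay between -0.39 and 0.28 and its neighbour in the cycle, the betaine methyltransferase gene bhmt, between -0.29 and 0.23. Of 19 germline and transposon silencing genes none was called and 14 lay within -1 to 1. Of these the tudor gene tdrd5, at 8.07, 7.63, 7.33 and 7.62 with azacytidine and 6.23, 6.25, 3.79 and 6.21 in controls, missed the call (2.04, adjusted p = 0.073).

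Some pathways lay between these extremes, with differences that leaned upward in most members and no call. Of 45 ER stress and chaperone genes, 40 had positive differences (median 0.56) and 22 had an unadjusted p under 0.05 in limma, all higher, against 5.67% of all named genes. The disulphide isomerase gene pdia6 was at 6.28, 7.39, 6.51 and 6.21 on azacytidine arrays 1, 2, 5 and 6, against 5.46, 5.28, 5.35 and 5.46 on controls 1, 2, 4 and 8 (1.21, adjusted p = 0.053). The ER-associated degradation lectin gene os9 was at 9.74, 9.19, 9.81 and 10.48 with azacytidine and 8.52, 8.56, 8.77 and 8.49 in controls (1.22, adjusted p = 0.058). Both separated the groups on every array. The stress regulator gene xbp1 differed by 0.21 with an interval from -0.27 to 0.70, though the array measures its level and not its splicing. Of 50 genes of ER translocation and vesicle coats, 49 had positive differences with a median of 0.33, and 41 still lay within -1 to 1. The translocon gene tram1 had the smallest p of this list (0.90, adjusted p = 0.070). After cyclic loess 4 ER stress genes and 1 translocation gene were called higher, and after centring 4 and 2.

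**Figure D5:**
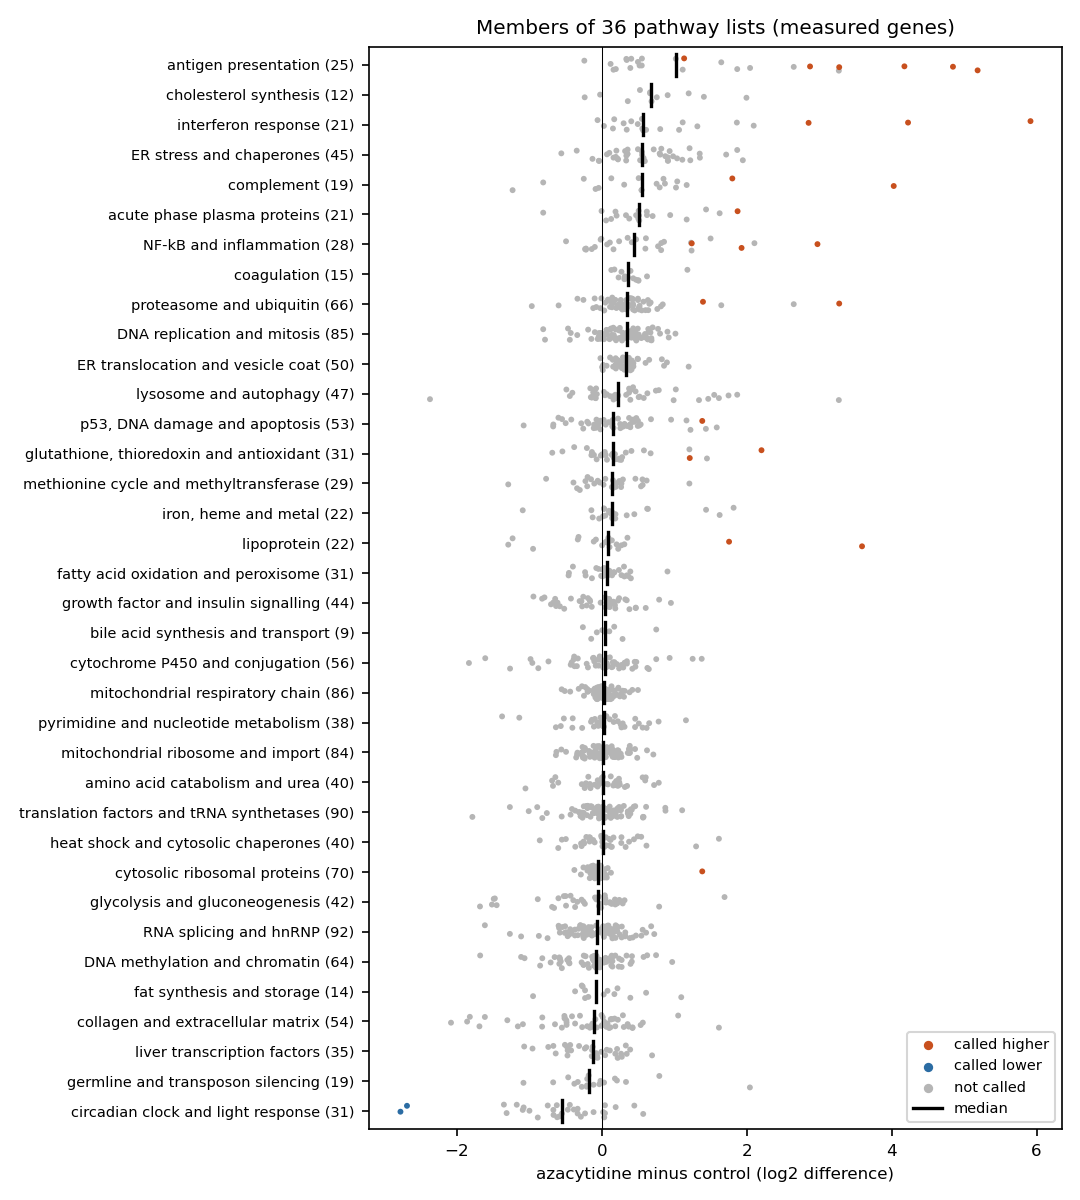
Log2 difference, azacytidine minus control (horizontal axis), of every measured member of 36 pathway lists (rows, number of genes in parentheses), ordered by median (black bars). Orange and blue points are members called higher and lower, grey points are not called. Antigen presentation has the highest median (1.02) and the clock list the lowest (-0.55), while ribosomal and respiratory chain genes crowd around 0.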

How the data were processed

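The deposited values were log2 levels of each probe set on each array. Per the submitters' processing notes the authors used GCRMA and Partek, and no version is given. GCRMA corrects for background by probe sequence, brings the arrays to a common distribution and combines the probes of a set, so levels near either end of the scale are compressed. Per the labels, the RNA went through 2 rounds of amplification, and both biotin and Cy3 are named as its label. The number of arrays limits the precision.

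The table held 12830 probe sets and 0 columns of other samples. After 46 array control probe sets were left out, 12784 were tested without further filter or normalisation. Of these, 8994 had 1 gene symbol in the platform annotation, 110 several and 3680 none. The probe set with the highest mean level over all 11 arrays stood for each of 7792 named genes.

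All 11 arrays were fitted in limma 3.58.1 (R 4.3.3) with 3 group means, 8 residual degrees of freedom and empirical Bayes moderation with a mean-dependent trend. Differences are azacytidine minus control ± the fitted standard error, tested 2-sided with Benjamini-Hochberg adjustment over all 12784 probe sets, and called at an adjusted p under 0.05. A gene counted as placed within -1 to 1 when its 95% interval lay wholly inside those bounds. A level was taken as dim below the 10th percentile of its array. The functions were tested on simulated data.

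The members and the 49 gene lists were chosen with earlier results of these data known. Named genes were the called ones, the called members of each list or else up to 2 with the smallest p, the 10 narrowest intervals in the top 25% of levels and up to 3 such members per list, the 8 above-median genes with the largest azacytidine SD, and ahcy with the measured dnmt genes. Uncalled list members named beside called ones (irf7, irf1a, psme2, psmb8a, psmb9a, psmb10, ptprc, mpx, lyz, nfkbiaa, relb, c4, c9, ciarta, bmal1a and clockb) and xbp1 as a regulator were chosen after their values were seen. Alternatives changed the variance prior, dim filter, scaling, array weights, arrays included, replicate block, marker covariate, margin or minimum change. Leaving out controls 4 and 8 together was chosen after seeing the data.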

Additional observations from a re-analysis of the deposited data

Results flagged for a closer look

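In groups of 4 arrays, 352 sets of levels were examined for a single array whose gap to the nearest other took up most of the group's range, past the 95% critical value of Dixon's test. There were 25 such arrays, 18 in the azacytidine group and 7 among controls. Chance alone marks about 1 in 20 groups, a rate for independent groups not chosen by their spread. The sets here were not independent, and some genes had been picked for a large SD among azacytidine arrays. Of the genes with a marked azacytidine array, anxa2b, chia.2 and slc13a2 came from that pick. The split between the groups is thus partly built in, and no conclusion is drawn from it.

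Azacytidine array 6 was set apart upward by several genes and marker lists. The intestine list averaged 8.93 there, against 6.58 to 6.83 on the other azacytidine arrays, and the exocrine pancreas list 7.09, against 5.36 to 5.63. The genes anxa2b (9.51), chia.2 (10.21) and slc13a2 (9.96) stood at least 4 log2 units above the next azacytidine array, and stard3 (6.22, others 5.75 to 5.83) by less. The same array was low for hmgn7 (8.17, others 8.72 to 8.83) and for the mean of the respiratory chain list (10.79, others 11.01 to 11.02).

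Azacytidine array 1 was low for erap1b (5.57, others 6.30 to 6.36) and for the epidermal annexin gene anxa1c (6.54, others 7.81 to 7.88). Array 2 was low for c7b (6.57, others 8.95 to 9.34). It was high for kdm1a (5.81, others 5.27 to 5.34), the keratin gene krt15 (9.25, others 8.19 to 8.36), the bile acid transporter gene slc10a2 (5.55, others 5.42 to 5.44) and the mean of the neural list (5.52, others 5.17 to 5.21). Array 5 was high for LOC561325 (10.95, others 10.09 to 10.13), and low for slc39a9 (6.31, others 7.24 to 7.34) and for the mean of the antioxidant list (9.36, others 9.53 to 9.55).

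Among controls, array 1 was high for b2m (6.20, others 5.09 to 5.22), and low for pvalb3 (5.82, others 6.22 to 6.28) and chia.2 (5.54, others 8.69 to 9.05). Control 2 was low for ahcyl1 (8.37, others 9.05 to 9.09). Control 4 was low for tdrd5 (3.79, others 6.21 to 6.25) and vcp (6.79, others 7.13 to 7.19), and control 8 was high for the endothelial receptor gene flt4 (7.34, others 6.57 to 6.70).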

How the results depend on the processing

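Against 51 probe sets called higher and 23 lower, cyclic loess gave 92 and 28, centring 97 and 27, array weights 129 and 98, a minimum change of 1 gave 9 and 1, leaving out controls 2 and 4 gave 19 and 18, and leaving out controls 4 and 8 gave 27 and 6. The share of higher calls, 68.9%, was 78.2% after centring and 56.8% with array weights. Over the fits without 1 array the counts ran from 28 to 77 and from 4 to 94: 28 and 4 with control 4 left out, 59 and 94 with control 2, 40 and 8 with control 8, 77 and 17 with azacytidine array 1, 31 and 9 with array 2, 35 and 6 with array 5, 31 and 12 with array 6, and 46 and 15 with mutant 4. Calls held in all 11 such fits for 18 of 47 named genes and were lost in 6 or more for 17.

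The sample number as a fixed replicate block called 0 and 0 probe sets in limma, with 606 higher and 589 lower at an unadjusted p under 0.05. As a random block it called 62 and 29. Deviations of same-numbered arrays correlated at -0.01, -0.28, 0.02 and 0.00. Azacytidine and control arrays share only the numbers 1 and 2, so these values cannot decide whether a number marks a shared clutch or day. The fixed block also leaves few residual degrees of freedom. With it the 34 named risers and the 13 named fallers all kept their direction, each with an unadjusted p under 0.05 in limma. Being called on these same arrays partly builds this in. The loss of calls with the fixed block therefore has no settled reading. The covariate of neural, muscle and epidermis markers also called 0 and 0.

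The count of 3558 probe sets within -1 to 1 was 404 at a margin of 0.5, 1869 in the top 25% of levels, 2073 with the fixed block and 1377 with the covariate. Of the named gene results, 16 values were counted as turning sign, none of them of a called gene. The count is not complete, since other uncalled genes also crossed 0 in some fits. Among them were sdc4 (-0.37, up to 0.35), mdm4 (-0.08, up to 0.79) and pdia3 (0.16, down to -0.31). For flt4 the counted values were 0.0037 after cyclic loess, 0.028 after centring, 0.11 with the fixed block and 0.078 without controls 4 and 8. Its range was -0.15 to 0.10 over the fits without 1 array. For ahcy they were 0.045 after centring and 0.016 with the fixed block, range -0.15 to 0.035. For fli1 the fixed block gave 0.11, range -0.51 to 0.013, and for dnmt3ba it gave 0.11. With the covariate dnmt3ba was at 0.45, acad8 at -0.040, col1a2 at 0.43, isl1a at 1.01 and neurod1 at 0.71. The cause of these shifts was not tested. The number of arrays and the uneven marker content of the controls limit these results, and dim transcripts cannot be told from background.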

Other observations

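Other gene groups leaned upward in azacytidine livers without calls. Of all named genes, 46% had positive differences, and 5.67% were higher and 9.29% lower at an unadjusted p under 0.05 in limma. Of 12 measured cholesterol synthesis genes, 10 had positive differences with a median of 0.68, and 6 were higher at an unadjusted p under 0.05 in limma, where none was called. The sterol demethylation gene msmo1 was at 6.28, 7.56, 8.84 and 8.56 on azacytidine arrays 1, 2, 5 and 6, against 5, 5.96, 5.71 and 6.59 on controls 1, 2, 4 and 8 (2.00, adjusted p = 0.095). All 15 coagulation genes had positive differences, with a median of 0.36 and no call. The fibrinogen gene fgb was at 12.61, 12.53, 12.66 and 12.85 with azacytidine and at 12.18, 12.03, 12.31 and 12.12 in controls (0.50, adjusted p = 0.14).

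Of 47 lysosome and autophagy genes, 33 had positive differences with a median of 0.22, and none was called. At an unadjusted p under 0.05 in limma 11 were higher and 1 lower, against 5.67% and 9.29% of all named genes. The protease gene ctss2.1, also counted with antigen presentation and leukocytes, was at 6.78, 9.06, 10.29 and 8.52 with azacytidine and at 6.38, 5.22, 4.93 and 5.04 in controls (3.27, adjusted p = 0.068). Azacytidine array 1 was its lowest treated array and control 1 its highest control. Of 85 DNA replication and mitosis genes, 70 had positive differences with a median of 0.34, none was called and 44 lay within -1 to 1. The ferroxidase gene ceruloplasmin, cp, was at 11.47, 11.98, 11.65 and 11.93 with azacytidine and at 10.29, 9.81, 9.81 and 11.37 in controls (1.44, adjusted p = 0.11), and the groups did not overlap.

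Collagen and extracellular matrix genes gave no call of 54, with a median of -0.11. The collagen gene col10a1a differed by -2.08 (adjusted p = 0.071) and the collagen chaperone gene serpinh1b by 1.61 (adjusted p = 0.12).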
